A study of Sus scrofa with 4 samples.

Results

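The 6 genes described here encode the enzymes that write and remove methylation of cytosine in DNA. They were chosen by name: the 3 DNA methyltransferases DNMT1, DNMT3A and DNMT3B and the 3 TET dioxygenases TET1, TET2 and TET3. They are 6 of the 26921 genes and loci listed in each expression table, and all 6 were among the 15763 genes with enough reads to be tested. RNA sequencing was done on cultured cells taken from pig testis and labelled as immature spermatogonia, the germ cells from which sperm production starts. In 2 libraries the cells carried a knockdown of ZBTB16, a zinc finger transcription factor and a known marker of undifferentiated spermatogonia, and in 2 control libraries they had the genotype WT. The series' plan describes a short hairpin RNA delivered by lentivirus to primary cells. Whether the controls received a vector, how many animals gave cells, and the animals' age and breed are not stated in the labels, so an effect of the virus and of the knockdown cannot be told apart. The question addressed is how expression depends on ZBTB16, and here how far the DNA methylation enzymes changed with its knockdown.

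DNA methylation sits mostly on cytosines that are followed by guanine. DNMT1 copies it onto the new strand after replication, while DNMT3A and DNMT3B place it on unmethylated DNA. TET1, TET2 and TET3 oxidise methylcytosine to hydroxymethylcytosine and beyond, after which it is lost by dilution or by excision repair. In the mouse male germ line, methylation is erased in primordial germ cells and set again before birth by DNMT3A with its cofactor DNMT3L. These RNA data measure the enzymes' transcripts, not methylation.

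The libraries held 18500447 and 16548342 expected counts with knockdown and 17283536 and 15983390 in the controls. Values of libraries are given in the order replicate 1, replicate 2 throughout. FPKM counts fragments relative to the transcript's length and the library's size. ZBTB16 itself had 1.37 and 1.34 FPKM in knockdown cells, against 1.77 and 1.76 FPKM in control cells. Its counts fell (log2 fold change −0.36 ± 0.11 SE, n = 2 libraries each, adjusted p = 0.00338 by edgeR with Benjamini-Hochberg adjustment), but DESeq2 gave an adjusted p of 0.109. Squared differences between replicates were 1.26 times those of counting error with knockdown and 1.15 times in the controls. P-values therefore rest on replicates that differed little more than repeat counts of 1 sample would, and 46.4% of all tested genes were called. The labels speak of independent experiments, and not of separate animals. The groups also differed in the mean length of the sequenced fragments, which was 266.4 and 267.4 bases with knockdown and 325.7 and 326.7 bases in the controls. The share of counts from mitochondrial genes was 5.71% and 5.71% with knockdown and 4.15% and 4.29% in the controls.

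The labelled cell type was poorly matched by the markers. Of 13 germ cell markers, 10 could be tested, of which 3 rose and 2 fell. Over the 12 with a value the summed level was 133.6 and 132.3 FPKM with knockdown and 162.4 and 161.6 FPKM in the controls, most of it UCHL1. DDX4, a defining germ cell RNA helicase, had 2.01 and 1.86 FPKM with knockdown and 2.3 and 1.96 FPKM in the controls. The germ cell genes LIN28A and NANOS2 were too low to test, and NANOS3 was not analysed here. Markers of Sertoli and peritubular cells were higher in sum. Summed over 10 Sertoli cell markers the level was 946.1 and 971.6 FPKM with knockdown and 782.9 and 771.0 FPKM in the controls, and 6 of 9 tested markers rose while 2 fell. CLDN11 alone had 691.3 and 720.8 FPKM with knockdown and 587.1 and 571.2 FPKM in the controls, and the other 9 Sertoli markers summed to 254.8 and 250.8 FPKM with knockdown and 195.8 and 199.9 FPKM in the controls. Over 11 peritubular and fibroblast-like markers it was 7777 and 7662 FPKM with knockdown and 8134 and 8042 FPKM in the controls, with 5 that rose and 5 that fell. The largest part was ACTA2, with 3508 and 3440 FPKM with knockdown and 3209 and 3198 FPKM in the controls. ACTA2, MYH11, CNN1, DES and LUM rose. TAGLN fell, with 1442 and 1418 FPKM with knockdown and 1919 and 1846 FPKM in the controls, as did COL1A2, COL3A1, PDGFRA and DCN. Over 9 macrophage markers the summed level was 70.2 and 65.2 FPKM with knockdown and 127.5 and 130.8 FPKM in the controls, with 1 that rose and 4 that fell. Most of this sum was TYROBP, with 45.6 and 37.9 FPKM with knockdown and 92.2 and 91.7 FPKM in the controls. Leydig cell markers (7) summed to 181.3 and 192.0 FPKM with knockdown and 222.1 and 220.2 FPKM in the controls, with 0 that rose and 2 that fell. Most of this sum was CYP11A1, with 144.2 and 150.5 FPKM with knockdown and 161.7 and 157.8 FPKM in the controls. CYP11A1 did not pass the test. Endothelial markers (5) summed to 10.7 and 9.61 FPKM with knockdown and 12.4 and 10.8 FPKM in the controls, with 0 that rose and 1 that fell. No marker was at 0 in every library. Without control replicate 1 or knockdown replicate 1, 3 macrophage markers were called, and without knockdown replicate 2, 0 endothelial markers by edgeR (0 at an unadjusted p under 0.05). The levels below are therefore those of a culture with abundant somatic transcripts, and the part of these cells in each result was not tested. In bulk RNA, fewer cells of a type and less RNA per cell cannot be told apart.

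Because the genes form families, it matters whether reads of one member could be counted for another. For each gene the transcript with the longest coding sequence was used. The sequences below are the longest stretches of coding sequence that members of a family share letter for letter, with 20 bases on each side. They were read from the RefSeq annotation on the pig genome Sscrofa 11.1, in the direction of the gene. Capitals mark the shared bases. DNMT3A (chromosome 3, bases 113501972 to 113609148, plus strand) and DNMT3B (chromosome 17, bases 36345715 to 36386076, plus strand) shared 22 bases, and in both genes the printed stretch crosses a junction between exons. DNMT3A lies here at chr3:113597543-113597792 and DNMT3B at chr17:36378563-36378946.
DNMT3A: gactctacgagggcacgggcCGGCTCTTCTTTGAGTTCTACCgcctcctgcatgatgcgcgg
DNMT3B: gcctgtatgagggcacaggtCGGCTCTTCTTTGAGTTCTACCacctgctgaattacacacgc

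TET2 (chromosome 8, bases 116413253 to 116546976, minus strand) and TET3 (chromosome 3, bases 68918896 to 69020406, minus strand) shared 17 coding bases. The TET2 stretch is at chr8:116434306-116434362 and the TET3 stretch at chr3:68934335-68934391.
TET2: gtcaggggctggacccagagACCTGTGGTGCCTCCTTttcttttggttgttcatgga
TET3: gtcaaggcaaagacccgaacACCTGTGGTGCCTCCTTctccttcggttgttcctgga

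TET1 (chromosome 14, bases 71675671 to 71812732, plus strand) shared 16 coding bases with TET3. The TET1 stretch is at chr14:71799538-71799593, and the TET3 stretch, at chr3:68934291-68934346, starts close to the one above.
TET1: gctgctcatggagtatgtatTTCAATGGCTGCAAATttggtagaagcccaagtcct
TET3: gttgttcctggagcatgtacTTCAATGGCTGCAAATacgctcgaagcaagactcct

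TET1 and TET2 shared at most 14 coding bases. DNMT1 (chromosome 2, bases 68981564 to 69040364, minus strand) shared at most 13 with DNMT3A and 12 with DNMT3B. Over the longest annotated transcript of each gene, untranslated parts included, DNMT1 and DNMT3B shared 15 bases. There the longest run between any of the 6 genes was 25 bases, between DNMT3A and TET2. Other annotated transcripts, and unannotated ones that were counted, were not compared in this way. All of these runs are far shorter than the sequenced fragments. The deposited counts, which the counting program splits when a read fits several genes, were whole numbers in all 24 values of the 6 genes (6 genes in 4 libraries, within 0.005 of a whole number), against 81.7% of the values of all tested genes. Strand is a separate matter: no label says whether counting used it, so reads from transcripts of the opposite strand cannot be separated.

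The 6 genes kept the same order of FPKM in all 4 libraries: DNMT1, DNMT3A, TET3, TET2, DNMT3B and TET1. DNMT1 stood well above the rest, at 30.6 ± 0.750 FPKM in knockdown cells and 29.2 ± 1.28 FPKM in control cells (mean ± SD, n = 2 each). DNMT3A followed at 8.40 ± 0.417 FPKM with knockdown and 8.38 ± 0.552 FPKM in the controls, and the other 4 lay between 1.85 and 6.39 FPKM in single libraries. The ranges of neighbours in this order did not overlap over the 4 libraries. The closest pair was TET2 and DNMT3B in control cells, at 3.91 ± 0.106 FPKM for TET2 and 3.51 ± 0.219 FPKM for DNMT3B. In knockdown cells these genes stood further apart, at 4.42 ± 0.127 FPKM for TET2 and 2.90 ± 0.297 FPKM for DNMT3B. DNMT3L, the catalytically inactive cofactor of DNMT3A and DNMT3B, was near the floor, with 12 and 7 counts in knockdown cells and 8 and 6 counts in control cells, and was too low to test.

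**Figure D1:**
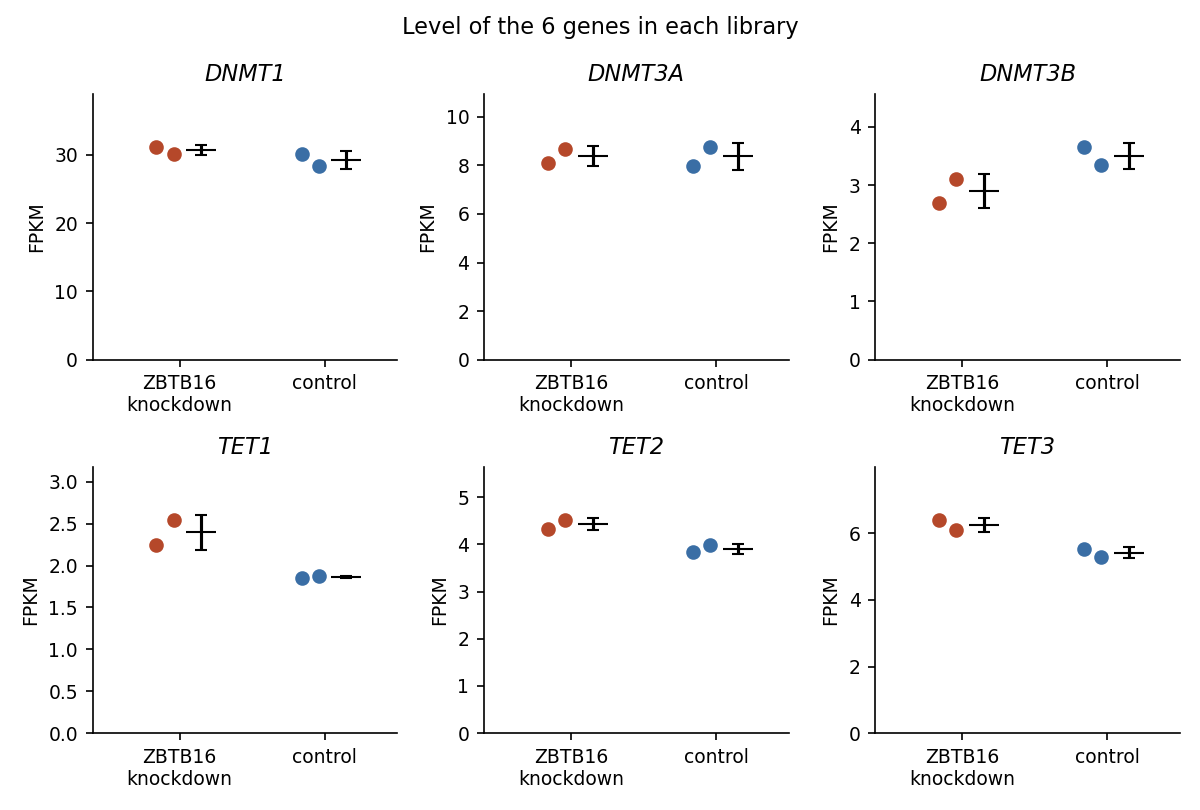
FPKM of the 6 genes in each library (points) with the mean ± SD of each group (n = 2, drawn to the right of its points), knockdown cells left of control cells; each panel has its own axis. The groups do not overlap for DNMT3B, TET1, TET2 and TET3, and they overlap for DNMT1 and DNMT3A.

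With ZBTB16 knockdown, 4 of the 6 genes rose (DNMT1, TET1, TET2 and TET3), 1 fell (DNMT3B) and DNMT3A did not pass the test. Calls use edgeR's quasi-likelihood test of the counts with an adjusted p (Benjamini-Hochberg) under 0.05, and fold changes are of counts, knockdown over control. By the same rule 46.4% of all tested genes were called, with 22.7% higher and 23.8% lower in knockdown cells. The changes were small, between 0.844-fold for DNMT3B and 1.3-fold for TET1. The median log2 fold change of the 6 genes was 0.14, against −0.0008 over all tested genes. With a trend of transcript length removed, as described below, the median of the 6 was −0.006, against −0.010 over all tested genes. FPKM did not overlap between the groups for 4 of the 6 genes, and for 70.4% of all tested genes. With one library left out, 3 to 5 of the 6 genes were called, against 38.4%, 37.9%, 37.4% and 38.5% of all tested genes without knockdown replicate 1, knockdown replicate 2, control replicate 1 and control replicate 2. The 3 were TET1, TET2 and TET3, without knockdown replicate 1. DESeq2 called 2 of the 6 and 33.4% of the 13318 genes to which it gave an adjusted p. Limma on log2(FPKM + 1) called 0 of the 6 (2 at an unadjusted p under 0.05) and 46.4% of the 13072 genes in that fit. Its calls were split into 2096 higher and 3971 lower genes, against 3574 higher and 3745 lower in edgeR. The share called was 46.2% of the same number of genes with a pseudocount of 0.1, and 21.8% of 23345 genes with no filter. Limma on log2(TPM + 1) called 5 of the 6 as higher. Of the 13796 genes in that fit, 54.1% were called in either direction and 40.1% as higher, with 5535 higher and 1928 lower genes. In edgeR with other settings the share of all genes called was 46.6% and 46.7% with other scalings, 30.5% with no low-count filter, 46.4% with effective length as an offset, 47.5% with a replicate block and 51.9% at an unadjusted p under 0.05. Each share, here and below, is of the genes tested in its own fit, for example 23329 with no low-count filter.

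DNMT1, the maintenance enzyme, had 2877 and 2484 counts in knockdown cells, against 2567 and 2227 counts in control cells. Its FPKM was 31.2 and 30.1 with knockdown and 30.1 and 28.3 in the controls. The groups overlapped in FPKM, since the lower knockdown library lay just under the higher control library. The fitted rise was 1.07-fold (log2 fold change 0.10 ± 0.034 SE, 95% interval of the fold 1.03 to 1.13, edgeR adjusted p = 0.00709). It was not called without control replicate 2 (log2 0.06, adjusted p = 0.292) or without knockdown replicate 1 (log2 0.07, adjusted p = 0.173), and DESeq2 gave an adjusted p of 0.115.

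DNMT3A, a de novo enzyme, had 711 and 659 counts in knockdown cells, against 668 and 666 counts in control cells. By FPKM it had 8.10 and 8.69 with knockdown and 7.99 and 8.77 in the controls, and the control values enclosed the knockdown values. The log2 fold change of counts was −0.02 ± 0.06 SE (edgeR adjusted p = 0.828). The 95% interval of its log2 fold change ran from −0.14 to 0.10. Its direction depended on the unit: in TPM, which gives each gene's part of all transcripts after correction for length, DNMT3A had 12.8 and 13.7 in knockdown cells and 10.8 and 11.8 in control cells (limma on log2(TPM + 1), log2 difference 0.21, adjusted p = 0.0442). On that scale the median of all genes was shifted by 0.144. The sign of the count fold change also turned without control replicate 2 (log2 0.03) and without knockdown replicate 1 (log2 0.0047), both far from the threshold.

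DNMT3B, the other de novo enzyme, was the only one of the 6 that fell. It had 192 and 196 counts in knockdown cells, against 241 and 201 counts in control cells, and 2.69 and 3.11 FPKM with knockdown, against 3.66 and 3.35 FPKM in the controls. Both knockdown libraries lay below both control libraries, with control replicate 1 the highest. The fold was 0.844 (95% interval 0.731 to 0.976, log2 fold change −0.24 ± 0.11 SE, edgeR adjusted p = 0.0496), just inside the threshold. The call was lost without control replicate 1 (log2 −0.17, adjusted p = 0.348) and without knockdown replicate 1 (log2 −0.15, adjusted p = 0.365), and it held in 4 of 15 alternatives in all. The direction was the same in each of the 15. In TPM the groups overlapped, at 4.24 and 4.91 with knockdown and 4.95 and 4.51 in the controls.

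TET1 had the largest fold change of the 6 and the lowest level. It had 291 and 295 counts in knockdown cells, against 223 and 211 counts in control cells. Its FPKM was 2.25 and 2.54 with knockdown and 1.85 and 1.87 in the controls, so that the groups did not overlap. The rise was 1.3-fold (95% interval 1.14 to 1.48, log2 fold change 0.38 ± 0.10 SE, edgeR adjusted p = 0.000471). It was called without each library in turn (log2 0.29 to 0.47, highest adjusted p = 0.0365) and by DESeq2 (adjusted p = 0.0481), and it missed the threshold in limma on log2(FPKM + 1) (log2 difference 0.25, adjusted p = 0.0634).

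TET2 had 796 and 738 counts in knockdown cells, against 653 and 626 counts in control cells. In FPKM this was 4.33 and 4.51 with knockdown and 3.83 and 3.98 in the controls, with no overlap. Its rise was 1.15-fold (log2 fold change 0.21 ± 0.06 SE, edgeR adjusted p = 0.00175). TET3, the most abundant of the dioxygenases, had 1314 and 1121 counts in knockdown cells, against 1088 and 970 counts in control cells. It had 6.39 and 6.09 FPKM with knockdown, against 5.53 and 5.30 FPKM in the controls, again with no overlap, and rose 1.14-fold (log2 fold change 0.19 ± 0.05 SE, edgeR adjusted p = 0.000501). Both stayed called without each library in turn, with a highest adjusted p of 0.0486 for TET2 and 0.0392 for TET3. DESeq2 called TET3 (adjusted p = 0.0427) and did not call TET2 (adjusted p = 0.0771).

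Shares within the set were compared on the TPM scale. The 3 dioxygenases made up 23.6% and 23.9% of the summed TPM of the 6 genes in knockdown cells, against 21.1% and 21.6% in control cells. The groups did not overlap. An exact two-sided permutation test of 2 against 2 libraries gave p = 0.333. This is the smallest p that the design allows, so the test cannot decide whether the share shifted. All 3 dioxygenases have long transcripts, and the count changes of TET2 and TET3 ended once a trend of length was removed (log2 0.02 and −0.02, described below). Among the methyltransferases, DNMT3B made up 6.42% and 7.42% of the transcripts with knockdown and 8.77% and 8.28% in the controls. DNMT1 took 74.3% and 71.8% with knockdown and 72.1% and 70.0% in the controls, and DNMT3A 19.3% and 20.7% with knockdown and 19.1% and 21.7% in the controls, so that both overlapped. Among the dioxygenases TET1 made up 17.4% and 19.3% with knockdown and 16.5% and 16.8% in the controls. Shares of TET2 (33.3% and 34.3% with knockdown, 34.2% and 35.7% in the controls) and TET3 (49.3% and 46.4% with knockdown, 49.4% and 47.5% in the controls) overlapped.

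Transcript length moved with the fold changes. Tested genes were ordered by the mean transcript length in the deposited tables and cut into 10 classes of equal size, from class 1 with the shortest to class 10 with the longest transcripts. The median log2 fold change was −0.31 in class 1 and 0.17 in class 10, of 7009.69 bases or more. The 3 dioxygenases were in class 10, where 44.3% of genes rose and 5.26% fell. DNMT1 and DNMT3A were in class 8, with a median of 0.08, and DNMT3B in class 7, with a median of 0.06. DNMT1, TET2 and TET3 thus lay close to the median of genes of their length. TET1 lay above it and DNMT3B below it.

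A fit in which a smooth trend of length was removed from each library called TET1 as higher (log2 fold change 0.23, edgeR adjusted p = 0.0485) and DNMT3B as lower (log2 −0.29, adjusted p = 0.0198). It ended the calls of DNMT1 (log2 0.01, adjusted p = 0.901), TET2 (log2 0.02, adjusted p = 0.802) and TET3 (log2 −0.02, adjusted p = 0.803). DNMT3A was again not called (log2 −0.11, adjusted p = 0.151). In this fit 40.9% of all tested genes were called, with 19.3% higher and 21.6% lower. For ZBTB16, which is also in class 10, the fall grew to a log2 fold change of −0.51 (adjusted p = 2.02e-05). Fragment length separated the groups without overlap, so it cannot be told apart from the knockdown. Its part in the length trend was not tested.

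**Figure D2:**
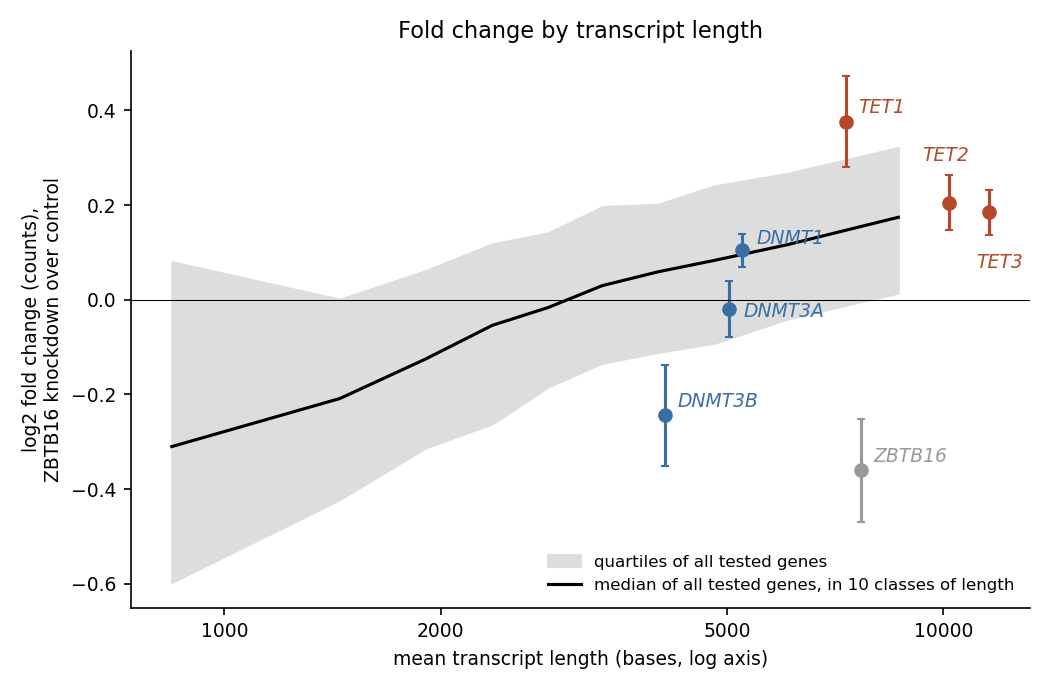
Log2 fold change of counts (knockdown over control) against mean transcript length in bases on a log axis, with the median (line) and quartiles (band) of all tested genes in 10 classes of length, and the 6 genes and ZBTB16 as points with bars of ± 1 SE. The 3 TET genes and ZBTB16 lie among the longest transcripts, TET1 is above the band and DNMT3B below it.

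**Figure D3:**
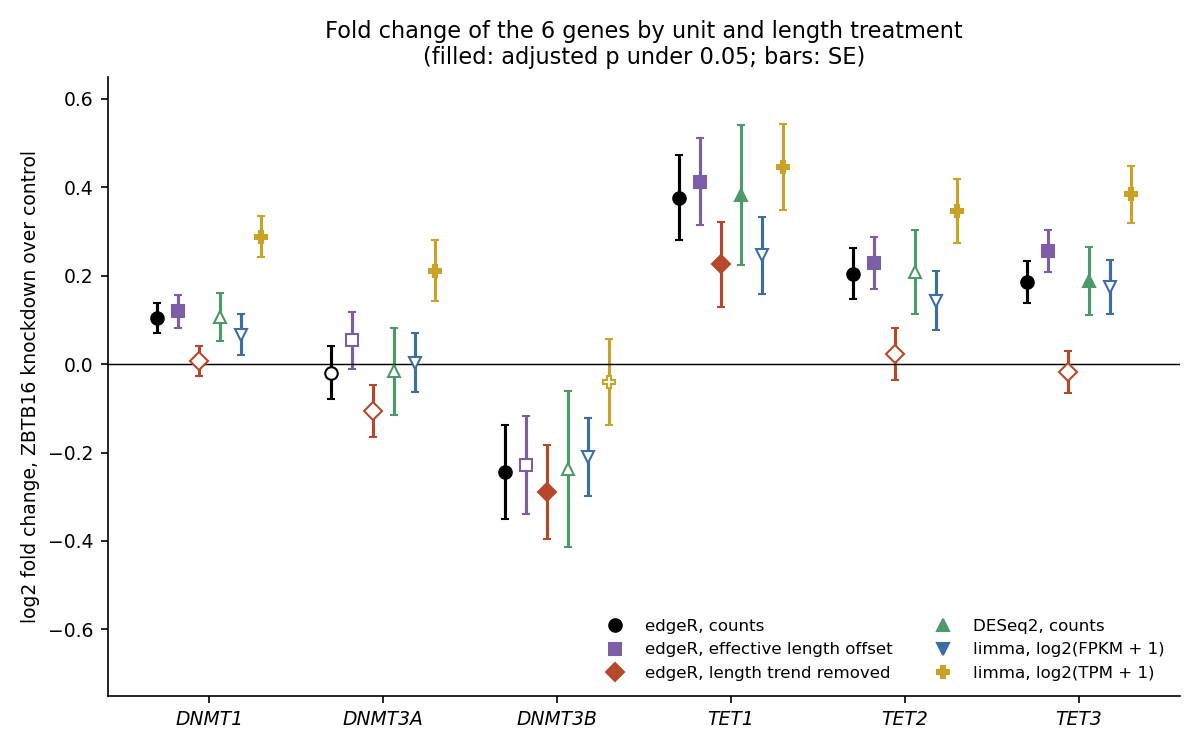
Log2 fold change (knockdown over control) of each of the 6 genes in 6 analyses that differ in unit, tool or treatment of length; filled points are called at an adjusted p under 0.05, open points are not, and bars are ± 1 SE. TET1 is above 0 and DNMT3B below 0 in all 6, while DNMT3A and TET3 have points on both sides.

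Transcript usage gives a second view of 3 of the genes. The deposited mean transcript length weights each isoform by its estimated abundance, so it changes when isoform use does. For DNMT3A it was 5011 and 4849 bases in knockdown cells, against 5165 and 5079 bases in control cells, a difference of −3.74%. DNMT3A has 20 annotated transcripts of 2503 to 12588 bases with 13 distinct start positions, the widest choice among the 6 genes. For TET3 the mean length was 11388 and 11388 bases with knockdown, against 11717 and 11777 bases in the controls, a difference of −3.05%. TET3 has 1 annotated transcript, and 2 further unannotated ones were counted. TET1, with 1 annotated and 1 unannotated transcript, had 7253 and 7293 bases with knockdown and 7317 and 7380 bases in the controls, a difference of −1.03%. In all 3 genes both knockdown libraries were shorter than both control libraries, as in 21.4% of all tested genes. The size of the difference was above that of 85.8% of tested genes for DNMT3A, 82.9% for TET3 and 66.3% for TET1. The median size over all tested genes was 0.27%. Tested genes include some with the same mean length in every library, such as PCNA and AHCY. These shares therefore do not compare the 3 genes with genes of several transcripts only, which was not done. DNMT1, DNMT3B and TET2 overlapped between the groups. Read assignment to isoforms is an estimate that uses fragment length, and the part of the fragment length difference in these values was not tested.

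The proteins that work with DNMT1 and the de novo enzymes were described from a list of 16 genes, of which 14 could be tested. Of these 6 rose, 1 fell and 7 did not pass, with a median log2 fold change of 0.13. The share called was 50% of the list, against 46.4% of all tested genes. PCNA, the replication clamp that also binds DNMT1, had 94.3 and 97.9 FPKM in knockdown cells, against 85.9 and 89.9 FPKM in control cells (log2 fold change 0.25, edgeR adjusted p = 5.37e-07). TRIM28, the corepressor that protects imprints in mouse embryos, rose as well, with 133.5 and 131.1 FPKM with knockdown and 126.2 and 123.7 FPKM in the controls (log2 0.13, adjusted p = 1.26e-06). Limma on log2(FPKM + 1) gave TRIM28 a log2 difference of 0.08 and did not call it (adjusted p = 0.0536). The deubiquitinase USP7, a partner of DNMT1 and UHRF1, had 57.6 and 56.4 FPKM with knockdown and 53.0 and 52.7 FPKM in the controls (log2 0.13, adjusted p = 4.48e-05). UHRF1, which brings DNMT1 to newly copied DNA, had 16.2 and 17.6 FPKM with knockdown and 16.7 and 15.5 FPKM in the controls and did not pass (log2 0.10, adjusted p = 0.0882). UHRF1 was called as higher without control replicate 1 (log2 0.16, adjusted p = 0.0388) and without knockdown replicate 1 (log2 0.15, adjusted p = 0.0387). Its relative UHRF2 fell, with 11.9 and 12.1 FPKM with knockdown and 14.6 and 14.95 FPKM in the controls (log2 −0.25, adjusted p = 5.52e-05), a call that was not made in TPM (log2 −0.07, adjusted p = 0.245). With the length trend removed, 4 genes of the list rose and 2 fell, where 19.3% of all tested genes rose and 21.6% fell. In TPM 11 were called higher and 0 lower, against 40.1% of all genes called as higher.

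Of 13 methyl-CpG binding proteins and related readers, all tested, 4 rose, 2 fell and 7 did not pass, with a median log2 fold change of 0.08. The share called was 46.2%, against 46.4% of all tested genes. MBD2, which links methylated DNA to a deacetylase complex, had 29.5 and 27.7 FPKM in knockdown cells, against 21.7 and 21.8 FPKM in control cells (log2 fold change 0.43, edgeR adjusted p = 1.74e-22). ZBTB38, a zinc finger protein that binds methylated DNA, had 19.2 and 18.9 FPKM with knockdown and 16.2 and 16.0 FPKM in the controls (log2 0.28, adjusted p = 1.87e-11). MBD6 had 9.0 and 10.1 FPKM with knockdown and 7.46 and 6.68 FPKM in the controls (log2 0.46, adjusted p = 1.34e-10). MBD5 had 3.46 and 3.75 FPKM with knockdown and 2.76 and 2.59 FPKM in the controls (log2 0.42, adjusted p = 9.72e-08). MBD5 and MBD6 carry a methyl-binding type of domain but are not known to bind methylated DNA. With the length trend removed, 4 rose and 3 fell, where 19.3% of all tested genes rose and 21.6% fell. In TPM 8 were called higher and 0 lower, against 40.1% of all genes called as higher.

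Partners of the TET enzymes and the excision repair of oxidised methylcytosine moved more often down: of 17 tested genes 3 rose, 8 fell and 6 did not pass (64.7% called, against 46.4% of all tested genes), with a median log2 fold change of −0.18. Their transcripts were short, with a median of 2205 bases, and with the length trend removed 2 rose and 5 fell, with a median of −0.04. In that fit 19.3% of all tested genes rose and 21.6% fell. In TPM, 6 were called higher and 4 lower, against 40.1% of all genes called as higher. CXXC5, a CXXC zinc finger protein, had 45.3 and 43.5 FPKM in knockdown cells, against 30.9 and 30.5 FPKM in control cells (log2 fold change 0.53, edgeR adjusted p = 4.78e-23). The stress proteins GADD45A and GADD45B, which have been linked to active demethylation, both fell. GADD45A had 25.7 and 25.8 FPKM with knockdown and 37.5 and 35.9 FPKM in the controls (log2 −0.42, adjusted p = 1.93e-09), and GADD45B had 20.6 and 21.2 FPKM with knockdown and 29.0 and 31.8 FPKM in the controls (log2 −0.47, adjusted p = 4.16e-12). IDH2, a mitochondrial source of the 2-oxoglutarate that TET enzymes consume, had 163.7 and 163.0 FPKM with knockdown and 197.3 and 195.6 FPKM in the controls (log2 −0.19, adjusted p = 1.33e-10). Without the length trend IDH2 was not called (log2 −0.04, adjusted p = 0.177). TDG, the glycosylase that cuts out the oxidised bases, had 13.5 and 13.9 FPKM with knockdown and 12.1 and 13.1 FPKM in the controls (log2 0.17, adjusted p = 0.0148). The TDG call ended without control replicate 1 (log2 0.11, adjusted p = 0.273) or knockdown replicate 2 (log2 0.15, adjusted p = 0.105). OGT, a sugar transferase that binds TET2 and TET3, had 38.6 and 38.4 FPKM with knockdown and 35.1 and 35.3 FPKM in the controls (log2 0.11, adjusted p = 0.00317), and was likewise not called without the length trend (log2 0.02, adjusted p = 0.649).

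Enzymes that supply and clear the methyl donor S-adenosylmethionine mostly did not pass: of 13 tested genes 1 rose, 2 fell and 10 did not pass, with a median log2 fold change of −0.02. The share called was 23.1%, against 46.4% of all tested genes. AHCY, which removes the product of methyl transfer, had 50.6 and 47.8 FPKM in knockdown cells, against 43.9 and 44.4 FPKM in control cells (log2 fold change 0.22, edgeR adjusted p = 2.45e-06). SHMT2, the mitochondrial serine hydroxymethyltransferase, had 41.3 and 39.7 FPKM with knockdown and 46.1 and 46.7 FPKM in the controls (log2 −0.12, adjusted p = 0.0233). In TPM 5 genes of the list were called higher and 0 lower, against 40.1% of all genes called as higher. The sign of SHMT2 turned with the length trend removed (log2 0.02) and in TPM (log2 0.03). SHMT2 was not called without control replicate 1, control replicate 2 or knockdown replicate 2 (adjusted p = 0.0561, 0.148 and 0.150). Without control replicate 1, 1 gene of the list was called.

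**Figure D4:**
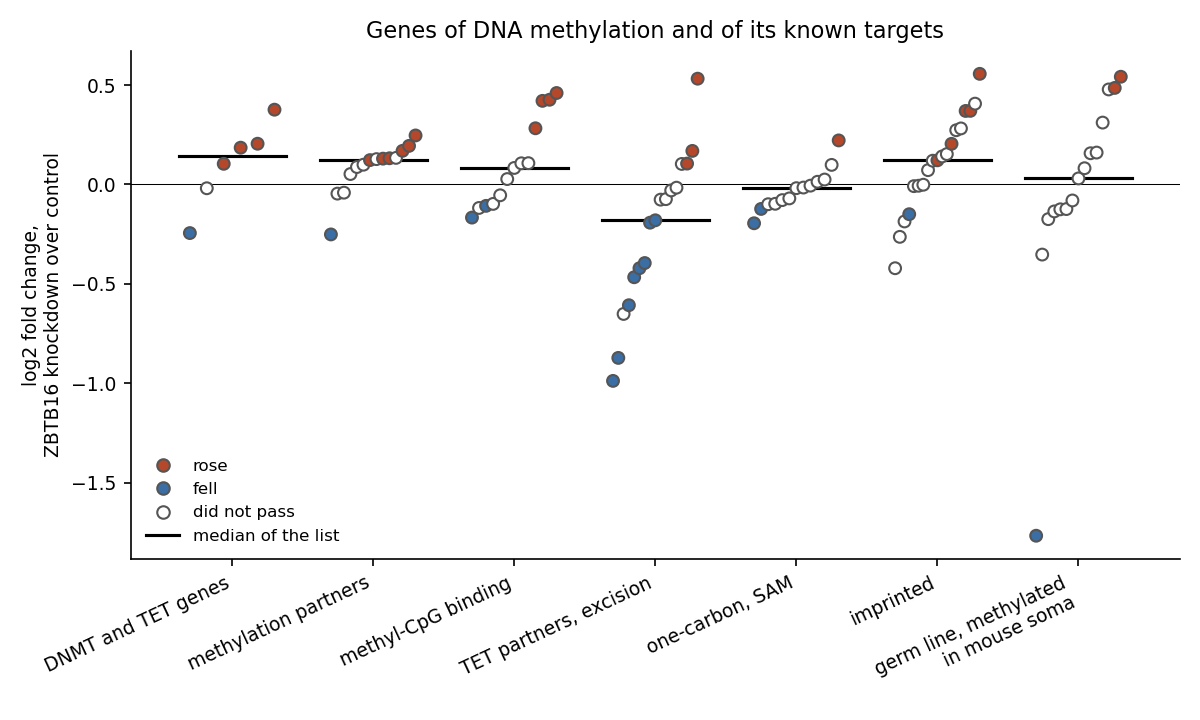
Log2 fold change of counts (knockdown over control) of every tested gene in the 7 gene lists, filled where called at an adjusted p under 0.05, with the median of each list as a bar. Medians lie between −0.18 for the TET partners and 0.14 for the 6 enzymes.

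Genes whose expression depends on DNA methylation elsewhere were read as a further list each. Of 19 tested imprinted genes, which are expressed from 1 parental copy under the control of methylation, 5 rose, 1 fell and 13 did not pass (31.6% called, against 46.4% of all tested genes), with a median log2 fold change of 0.12. PEG10 had 52.4 and 54.7 FPKM in knockdown cells, against 36.9 and 37.5 FPKM in control cells (log2 fold change 0.56, edgeR adjusted p = 3.98e-46). PLAGL1, a zinc finger transcription factor, had 22.7 and 21.6 FPKM with knockdown and 14.1 and 14.3 FPKM in the controls (log2 0.37, adjusted p = 1.96e-10). MAGEL2 had 9.47 and 8.96 FPKM with knockdown and 7.46 and 7.25 FPKM in the controls (log2 0.37, adjusted p = 3.84e-07). SNRPN, a splicing protein, had 42.7 and 43.1 FPKM with knockdown and 45.9 and 42.0 FPKM in the controls. Its counts rose (log2 0.12, adjusted p = 0.00843), but the sign was reversed in limma on log2(FPKM + 1) (log2 −0.03), and the call ended without control replicate 2 (adjusted p = 0.0779) or knockdown replicate 1 (adjusted p = 0.117). With the length trend removed, 8 of the imprinted genes rose and 2 fell, where 19.3% of all tested genes rose and 21.6% fell. In TPM 13 were called higher and 1 lower, against 40.1% of all genes called as higher.

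Of 15 tested germ line genes that promoter methylation keeps silent in mouse somatic cells, 2 rose, 1 fell and 12 did not pass (20% called, against 46.4% of all tested genes), with a median log2 fold change of 0.03. STAG3, a cohesin subunit of meiosis, had 4.15 and 4.20 FPKM in knockdown cells, against 3.12 and 3.01 FPKM in control cells (log2 fold change 0.49, edgeR adjusted p = 4.72e-06). DAZL, a germ cell RNA-binding protein, had 3.36 and 3.33 FPKM with knockdown and 2.06 and 2.70 FPKM in the controls (log2 0.54, adjusted p = 3.30e-05). RPL10L, a testis-expressed copy of a ribosomal protein gene, had 0.48 and 0.27 FPKM with knockdown and 1.41 and 1.52 FPKM in the controls (log2 −1.77, adjusted p = 0.00301). Its value is uncertain, since it had only 6 and 3 counts with knockdown and 15 and 14.92 counts in the controls. Whether it shares reads with its parent gene was not tested. The call ended without knockdown replicate 2 (log2 −1.44). Without control replicate 2, 5 genes of this list were called.

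For each of the 5 called enzymes, the tested genes whose pattern over the 4 libraries was most like it were found by the Euclidean distance between centred log2(FPKM + 1) values, among 11458 candidates. Candidates had a gene symbol and a mean FPKM of at least 1. With 4 libraries in 2 groups, many genes have nearly the same pattern, and the distances describe only these libraries. DNMT1 was nearest to GTF3C2 (distance 0.0106) and SNX18 (0.0118), and DNMT3B to CEP72 (0.0148) and TPST2 (0.0162). Of these genes only SNX18 was itself called (edgeR adjusted p = 0.000761). GTF3C2, CEP72 and TPST2 were not (edgeR adjusted p = 0.104, 0.270 and 0.201). TET1 was nearest to JADE1 (0.00884) and BBX (0.0125), TET2 to OTUD5 (0.0095) and LYPLA1 (0.00953), and TET3 to IRF2BP2 (0.00772) and NXF1 (0.0102). The genes nearest to TET1, TET2 and TET3 were all called as higher.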

How the data were processed

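RNA of 2 ZBTB16 knockdown and 2 control cultures was sequenced on an MGI instrument. Per the labels' protocols, SOAPnuke 2.1.0 filtered the reads, HISAT2 2.2.1 aligned them to pig assembly Sscrofa 11.1, bowtie2 2.3.5 mapped them to transcripts and RSEM 1.3.3 counted them. The authors deposited expected counts, in which a read that fits several transcripts is split, together with FPKM and TPM, and per the file headers each gene's transcript length and effective length (bases). The mean fragment length is the difference of these lengths. The labels name DESeq2 for the authors' own gene list, which was not used here.

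Expected counts were rounded and compared with edgeR 4.0.16 in R 4.3.3 (TMM scaling, filterByExpr with a minimum count of 10 and total of 15, two-sided quasi-likelihood test, Benjamini-Hochberg adjustment over 15763 genes, threshold 0.05). Where no other tool is named, adjusted p-values are from this fit. Standard errors were taken from the fold change and its F statistic, and 95% intervals from the standard error. The common biological coefficient of variation was 0.0129. FPKM and TPM are as deposited by the authors.

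Alternatives were DESeq2 1.42.0, other scalings (DESeq2 size factors and upper quartile), no low-count filter, limma 3.58.1 (trend, robust) on log2(FPKM + 1) and log2(FPKM + 0.1) (genes reaching an FPKM of 1 in 2 or more libraries, or no filter), effective length as an offset, removal of a smooth length trend per library (mgcv 1.9.3), the replicate number as a block, an unadjusted p, and leaving out each library. Limma on log2(TPM + 1) was added after the data were seen. The fits were also run on simulated counts. These held no length trend and no fragment length difference between the groups, so they cannot show how the calls fare under either.

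The 6 enzymes, the gene lists and the markers were chosen with earlier results of these data known. All 6 enzymes and ZBTB16 were named. In each list up to 4 called genes of the smallest p were named, if the mean FPKM reached 1 in the higher group, and DNMT3L, UHRF1, TDG and OGT whatever their p. One gene that this rule picks is not reported here. For each called enzyme the 2 nearest genes by pattern were named. No label says that a replicate number marks a shared batch, and deviations of same-numbered libraries correlated at 4e-04. Sequences come from NCBI RefSeq (Sscrofa 11.1).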

Additional observations from a re-analysis of the deposited data

How the results depend on the processing

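The calls of the 6 enzymes depended on the analysis. DESeq2 called 4452 genes of all (7319 in edgeR) and 2 of the 6. Limma on log2(FPKM + 1), on log2(FPKM + 0.1) and with no filter called 0 of the 6, with 2 of them at an unadjusted p under 0.05 in each, and removal of the length trend left 2. The log2 fold change of DNMT1 was 0.1073 by DESeq2, 0.0669 and 0.0690 by limma (pseudocounts 1 and 0.1, and 0.0669 with no filter) and 0.0068 with the length trend removed. DNMT3A, never called in counts, turned to 0.0028 and 0.0032 by limma (0.0028 with no filter), 0.2117 in TPM and 0.0536 with effective length as an offset. DNMT3B kept its sign and lost its call with DESeq2 size factors (−0.2412), upper-quartile scaling (−0.2420), DESeq2 (−0.2367), no low-count filter (−0.2534), limma (−0.2093 and −0.2672, and −0.2093 with no filter), TPM (−0.0411) and effective length (−0.2287). TET1 lost its call only in limma on FPKM (0.2461 and 0.3458, and 0.2461 with no filter), among the alternatives run. TET2 lost it by DESeq2 (0.2084), limma (0.1440 and 0.1745, and 0.1440 with no filter) and without the length trend (0.0222), and TET3 by limma (0.1745 and 0.2010, and 0.1745 with no filter) and without the length trend (−0.0181, reversed). With one library left out, 6040 to 6265 genes and 3 to 5 of the 6 were called, and log2 fold changes ran from 0.0599 to 0.1489 for DNMT1, −0.0771 to 0.0344 for DNMT3A, −0.3364 to −0.1505 for DNMT3B, 0.2892 to 0.4650 for TET1, 0.1753 to 0.2303 for TET2 and 0.1459 to 0.2188 for TET3. The cause of these differences was not tested.

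With the replicate number as a block, 7480 genes and the same number of the 6 enzymes, 5, were called, and DNMT3B stood at −0.24 (adjusted p = 0.0428). The block moved no call among the 6.

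Counts called in the lists also moved. Of the genes tested in each fit, 46.4% were called by edgeR, 33.4% by DESeq2 and 21.8% by limma with no filter. In TPM the share was 54.1%, and without the length trend 40.9%. For partners of methylation (7 called) limma with no filter called 1 and TPM 11. For TET partners (11) DESeq2 called 6 and the fit without the length trend 7. For one-carbon enzymes (3) DESeq2 called 1, while limma with either pseudocount, TPM, the fit without the length trend and an unadjusted p each called 5. For imprinted genes (6) DESeq2 called 3, TPM 14 and the fit without the length trend 10. Germ cell markers (5) gave 2 by DESeq2, 3 by limma with either pseudocount and 1 with no filter. Leydig markers (2) gave 4 by limma, macrophage markers (5) gave 3 by DESeq2 and by each limma fit on FPKM, and endothelial markers (1) gave 0 by DESeq2, by each limma fit on FPKM and in TPM (at an unadjusted p under 0.05 these gave 1 by DESeq2, 0, 0 and 1 by limma, and 0 in TPM), and 2 without the length trend. With one library left out the ranges were 6 to 7 for partners of methylation, 5 to 6 for readers, 9 to 10 for TET partners, 1 to 3 for one-carbon enzymes, 4 to 5 for imprinted genes, 2 to 5 for methylated germ line genes, 4 to 6 for germ cell, 7 to 8 for Sertoli, 2 for Leydig, 8 to 11 for peritubular, 3 to 5 for macrophage and 0 to 1 for endothelial markers. Single genes that turned were SHMT2 in TPM (0.0292) and without the length trend (0.0221), and SNRPN by limma (−0.0338 and −0.0344, and −0.0338 with no filter). Limma on log2(TPM + 1) was chosen after seeing the data. Depth limits TET1 and DNMT3B most: with 192 to 295 counts a library, the standard errors were 0.10 and 0.11 on the log2 scale.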

Other observations

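Among the TET partners and repair enzymes, 5 genes that fell lay outside the naming rule and were chosen after their values were seen. The base excision glycosylases NEIL1 (0.640 ± 0.014 FPKM in knockdown cells, 1.37 ± 0.191 FPKM in control cells), NEIL2 (1.11 ± 0.064 FPKM in knockdown cells, 1.77 ± 0.106 FPKM in control cells) and SMUG1 (4.38 ± 0.042 FPKM in knockdown cells, 6.07 ± 1.27 FPKM in control cells) fell by 0.99, 0.61 and 0.39 on the log2 scale of counts. The values of NEIL1 and NEIL2 rest on few counts. NEIL1 had 18.42 and 16 counts in knockdown cells and 30.4 and 35.04 in control cells, most of them not whole. NEIL2 had 40 and 33 counts in knockdown cells and 58 and 49 in control cells. GADD45G fell by 0.87, with 6.93 ± 0.856 FPKM in knockdown cells and 13.9 ± 1.68 FPKM in control cells, as its relatives GADD45A and GADD45B did. APEX1, the endonuclease that follows the glycosylases, fell by 0.18, with 120.8 ± 0.113 FPKM in knockdown cells and 127.7 ± 5.10 FPKM in control cells (mean ± SD, n = 2 each). In TPM APEX1 was higher, with 190.4 and 190.8 in knockdown cells and 177.5 and 167.1 in control cells (limma on log2(TPM + 1), log2 0.15, adjusted p = 0.0168). Its count change was close to the median of −0.21 in its class of length, and without the length trend it was not called (log2 −0.01, adjusted p = 0.828). APEX1 was also not called by limma on log2(FPKM + 1) (adjusted p = 0.114) or by edgeR with effective length as an offset (log2 −0.03, adjusted p = 0.530). The adjusted p-values by edgeR were 0.00636 for NEIL1, 0.0221 for NEIL2, 0.000492 for SMUG1, 8.26e-09 for GADD45G and 1.63e-06 for APEX1. The other 4 were lower in every alternative run. With the length trend removed NEIL1 (log2 −0.84, adjusted p = 0.0258), SMUG1 (log2 −0.41) and GADD45G (log2 −0.67) were called and NEIL2 was not (log2 −0.51, adjusted p = 0.0630). DESeq2 did not call NEIL2 (adjusted p = 0.216) or SMUG1 (adjusted p = 0.0611), and gave NEIL1 no adjusted p. Limma on log2(FPKM + 1), on log2(FPKM + 0.1) and with no filter did not call SMUG1 (adjusted p = 0.0539, 0.0517 and 0.119). In TPM limma called neither NEIL2 (adjusted p = 0.0554) nor SMUG1 (adjusted p = 0.238). NEIL1 was not called without control replicate 2 (adjusted p = 0.112), nor SMUG1 (log2 −0.21, adjusted p = 0.191), and NEIL2 was not called without knockdown replicate 1, knockdown replicate 2 or control replicate 1 (adjusted p = 0.0561, 0.103 and 0.147).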
